A study of Mus musculus with 6 samples.

Results

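The genes described here encode an adhesion system of the cell surface: the teneurins Tenm2, Tenm3 and Tenm4, the latrophilins Adgrl1, Adgrl2 and Adgrl3, and the FLRT proteins Flrt1, Flrt2 and Flrt3. They were taken by name, and their accessible sites were all consensus ATAC-seq intervals that overlapped a gene body, or the 100 kb on either side of it, by at least 1 bp. This gave 925 of the 323483 intervals of the experiment (0.286%). The genes were chosen by earlier interval counts from the same file, among the highest of which several of them stand, so counts and densities below are a description and carry no test. ATAC-seq uses a transposase to insert adapters into open DNA, and an interval is a stretch where a peak was called.

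The cells were mouse embryonic fibroblasts, heterozygous for the reverse transactivator M2-rtTA and for a tetracycline-controlled Myf6 transgene (TetO-Myf6), in iMPC medium with 10 ng/mL bFGF for 24 h. Of the 3 groups, each with 2 libraries, the first received this medium alone. The Myf6 group also received doxycycline at 2 µg/mL to induce Myf6, a myogenic transcription factor. The Myf6+F/R/C group received doxycycline with 5 µM forskolin, which raises cAMP, 5 µM RepSox, a TGF-beta receptor inhibitor, and 3 µM CHIR99021, a GSK3 inhibitor. Which promoter drives M2-rtTA was not stated in the sources used. The intervals analysed here are a consensus set, and on which libraries it rests was not stated in the sources used. They carry no value for a library or a group, so no difference between the groups was tested. Depth is unknown, and the values below come without replicate error. Whether an interval came from all cells or from few of them, and from which group, cannot be told apart.

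Teneurins are large type II membrane proteins, latrophilins are adhesion G protein-coupled receptors, and FLRT proteins carry leucine-rich repeats and a fibronectin domain on their outer side. Latrophilins bind both teneurins and FLRT proteins across cell contacts, which is best known from synapses, where the partners help to specify connections. FLRT proteins also bind UNC5 guidance receptors, and outside the nervous system members of these families are known from mesoderm and other embryonic tissues.

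Accessibility at the start site differed between the members. A start was counted as accessible when an interval lay within 1 kb of it, and RefSeq promoter entries on GRCm38.p6 gave 11 starts for 8 of the 9 genes, all but Flrt1. Of these 8 genes, 5 had an interval at a listed start (Tenm4, Adgrl1, Adgrl3, Flrt2 and Flrt3) and 3 had none (Tenm2, Tenm3 and Adgrl2). Among all 17491 protein-coding genes with a listed start, 71.6% had an interval there. At the outermost 5′ end of the gene model, which includes predicted transcripts, 7 of the 8 members had one, all but Tenm3, and 69.3% of the same genes. Promoters, from 250 bases before a start to 50 after it, are printed for the 3 genes without an interval and for 3 starts that intervals covered whole, to show how their sequences differ. Capitals mark matches, on either strand, to CAGCTG (the E-box form favoured by myogenic factors), TGANTCA (AP-1), TGACGTCA (cAMP response element), GGGCGG (Sp family), TATAAA (the core promoter box of that name), CCAAT (bound by NF-Y) and GGAATG (TEAD type).
Tenm2, chr11:36944192-36944491, minus strand, no interval: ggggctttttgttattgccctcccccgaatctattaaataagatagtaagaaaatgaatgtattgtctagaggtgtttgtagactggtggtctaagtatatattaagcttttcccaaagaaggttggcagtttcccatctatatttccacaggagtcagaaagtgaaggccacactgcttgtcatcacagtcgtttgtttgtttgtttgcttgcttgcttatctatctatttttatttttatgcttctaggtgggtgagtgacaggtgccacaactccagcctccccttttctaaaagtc
Tenm3, chr8:48674641-48674940, minus strand, no interval: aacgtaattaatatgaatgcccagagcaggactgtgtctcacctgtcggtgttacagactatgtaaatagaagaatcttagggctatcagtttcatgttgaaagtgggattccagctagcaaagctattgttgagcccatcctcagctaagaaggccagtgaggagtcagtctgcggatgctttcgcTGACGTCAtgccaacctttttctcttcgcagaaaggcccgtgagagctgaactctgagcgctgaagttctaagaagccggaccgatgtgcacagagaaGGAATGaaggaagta
Adgrl2, chr3:148954586-148954885, minus strand, no interval: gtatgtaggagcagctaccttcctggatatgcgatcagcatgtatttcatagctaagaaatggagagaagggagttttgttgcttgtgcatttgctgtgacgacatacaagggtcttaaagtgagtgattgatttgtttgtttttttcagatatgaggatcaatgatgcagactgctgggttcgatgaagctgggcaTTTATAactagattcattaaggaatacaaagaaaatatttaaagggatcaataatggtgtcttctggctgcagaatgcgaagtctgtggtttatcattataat
Tenm4, the second listed start, chr7:96211421-96211720, plus strand, covered: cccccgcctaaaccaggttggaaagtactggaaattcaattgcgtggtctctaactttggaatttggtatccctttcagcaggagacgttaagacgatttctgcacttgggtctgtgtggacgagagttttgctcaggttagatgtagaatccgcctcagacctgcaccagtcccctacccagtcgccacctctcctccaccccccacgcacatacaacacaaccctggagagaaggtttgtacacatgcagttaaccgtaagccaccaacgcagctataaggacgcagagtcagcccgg
Adgrl1, chr8:83899848-83900147, plus strand, covered: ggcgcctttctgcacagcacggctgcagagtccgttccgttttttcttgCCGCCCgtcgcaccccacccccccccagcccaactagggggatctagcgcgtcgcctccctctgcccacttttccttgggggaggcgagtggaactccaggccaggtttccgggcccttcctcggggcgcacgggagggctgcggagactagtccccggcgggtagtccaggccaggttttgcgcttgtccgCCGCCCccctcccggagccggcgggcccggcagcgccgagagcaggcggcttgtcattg
Adgrl3, the second listed start, chr5:81020502-81020801, plus strand, covered: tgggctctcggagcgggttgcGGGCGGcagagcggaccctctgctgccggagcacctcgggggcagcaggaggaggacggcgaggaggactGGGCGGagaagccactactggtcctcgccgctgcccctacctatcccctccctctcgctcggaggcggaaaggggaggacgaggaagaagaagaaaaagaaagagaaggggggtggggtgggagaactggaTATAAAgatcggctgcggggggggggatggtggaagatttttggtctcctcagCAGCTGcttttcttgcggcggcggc

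The listed promoters without an interval were poorer in G and C than the covered ones printed beside them. Their G and C content was 40.0% (Tenm2), 47.3% (Tenm3) and 38.0% (Adgrl2), against 52.3% (Tenm4, the second start), 70.0% (Adgrl1) and 64.7% (Adgrl3, the second start). The median over all 32851 listed promoters was 52.7%. The starts without an interval lay 292.8 kb (Tenm2), 848.1 kb (Tenm3) and 34.5 kb (Adgrl2) inside their gene models. Of the covered starts printed, that of Adgrl1 lay at the outermost 5′ end, that of Adgrl3 1.67 kb and that of Tenm4 40.4 kb inside. Base composition at the outermost 5′ ends of Tenm2, Tenm3 and Adgrl2 was not examined, so the contrast holds for listed starts only. CpG frequency, as observed over expected from base composition, was 0.167 for Tenm2 and 0.421 for Adgrl2, and 0.766 for Adgrl1 and 0.726 for Adgrl3. It did not separate starts with and without an interval among the members, since the first Tenm4 start (0.301) and Flrt3 (0.410) were covered whole or in 290 of 300 bases and lay below Adgrl2. G and C content was 52% at this Tenm4 start and 51.3% at Flrt3. Flrt2 had a CpG ratio of 0.610, and the other Adgrl3 starts 0.940 and 0.787. The Tenm3 promoter had 0.605, close to the 0.595 of the second Tenm4 start, so these 2 genes had like CpG frequencies with and without an interval. Over all listed promoters, 95.1% of the 11765 with a CpG ratio of at least 0.6 had an interval within 1 kb, and 49.8% of the 21086 below it. Tenm3 and the second Tenm4 start lay just above and just below this threshold, which was chosen after the values were seen. From 0.55 up to 0.65, 87.3% of 2087 promoters had an interval within 1 kb.

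The motifs differed in how often they occurred in the 11 member promoters. CAGCTG occurred in 1 of them, the second Adgrl3 start, where it followed TATAAA and stood after the start, and in 16.3% of all promoters. TGACGTCA, found in 1.79% of all promoters, occurred only at Tenm3 among the 11, in a promoter with no interval. GGGCGG was present at all 3 Adgrl3 starts and at Adgrl1 (35.7% of all promoters). The windows of the first and second Adgrl3 starts overlapped and shared the same GGGCGG matches. TATAAA occurred at Adgrl2 and the second Adgrl3 start (13.6%), and GGAATG at Tenm3 and the first Tenm4 start (14.7%). Neither TGANTCA nor CCAAT occurred in a member promoter, against 7.81% and 37.4% of all. The looser E-box CANNTG, which includes CAGCTG, was in 9 of 11 and in 72.3% of all. These matches describe letters in a window of 300 bases and not binding.

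**Figure D1:**
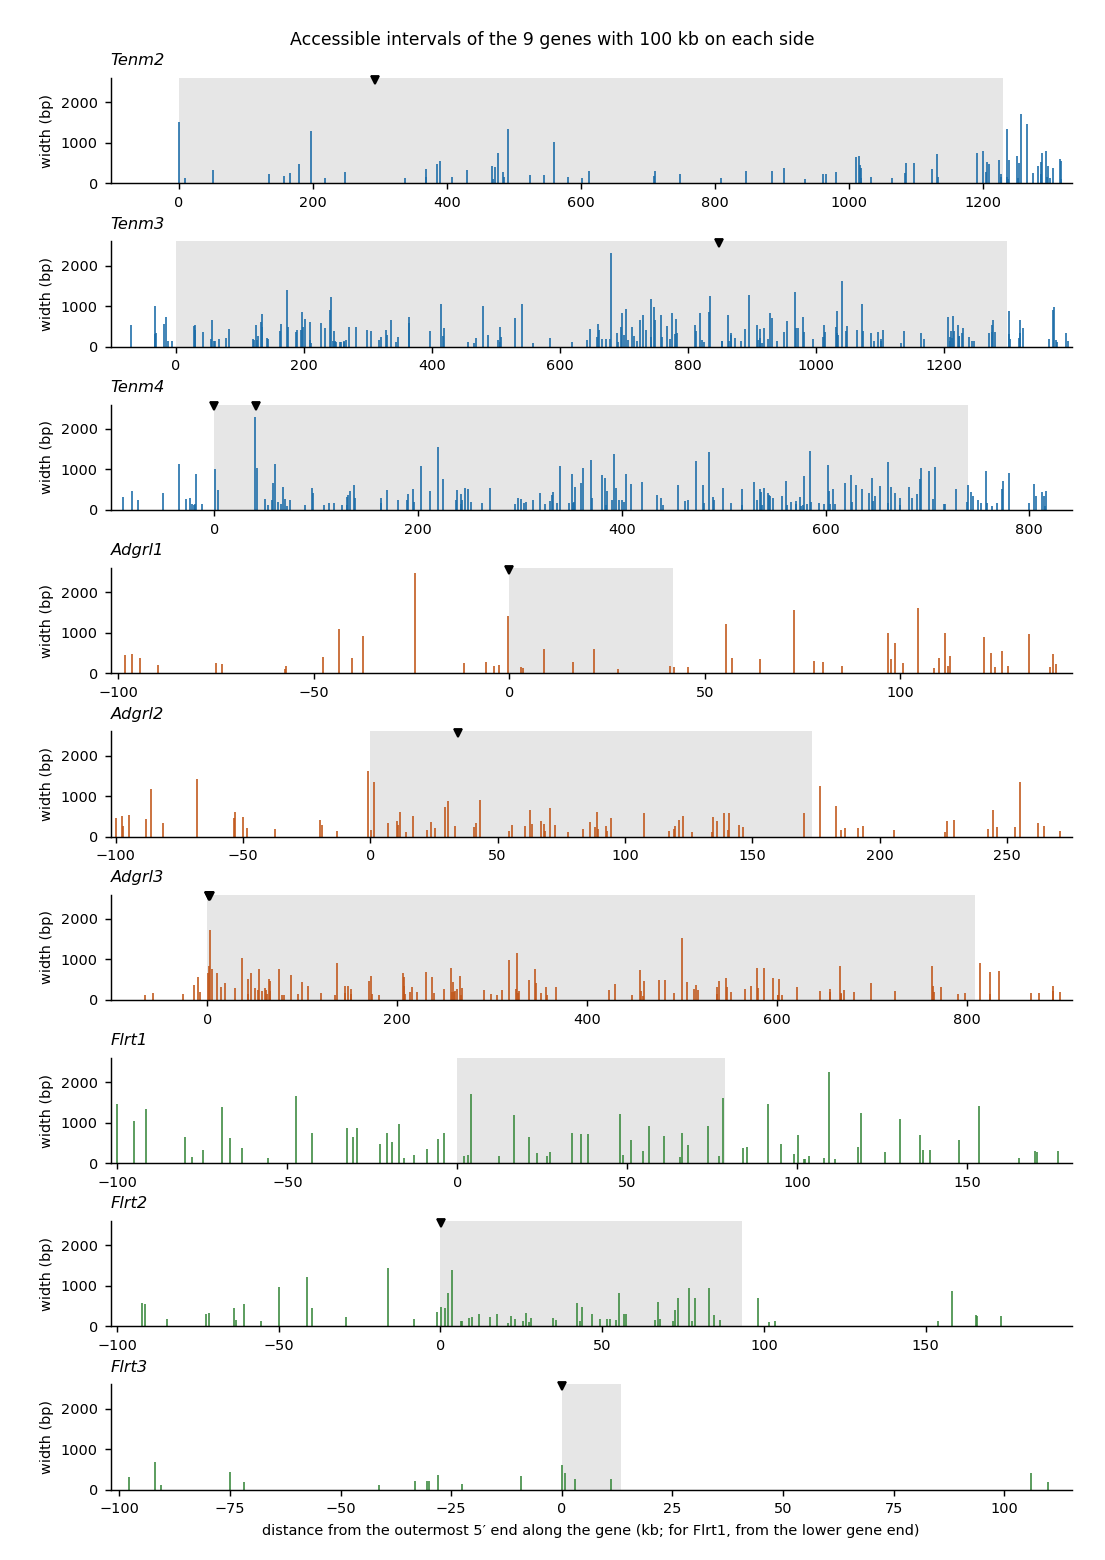
Each vertical line is an interval at its midpoint, with its width in bp as height, by distance in kb from the outermost 5′ end of the gene (Flrt1 from its lower end); grey marks the gene body, black triangles the listed starts, blue the teneurins, orange the latrophilins and green the FLRT genes. Tenm2 shows its 5′ end interval of 1513 bp and long empty stretches, Tenm3 a 2320 bp interval deep in the gene, and Flrt2 a body far denser than its flanks.

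Among the latrophilins, which act as receptors, Adgrl2 had an accessible start that was not its listed one. The gene lies on chr3:148815586-148989096 (gene ID 99633, minus strand, 173.5 kb). Its listed start lay 34.5 kb inside the gene model, and the nearest interval, of 250 bp, was 1.22 kb from it. At the outermost 5′ end, which includes predicted RefSeq transcripts, an interval of 1617 bp (chr3:148988999-148990615) spanned the end and was the widest of the whole Adgrl2 window. A neighbour of 1344 bp (chr3:148986879-148988222) lay just inside the gene. These belonged to a run of 15 intervals with gaps of at most 5 kb, from 148955855 to 148990615, that covered 22.9% of 34.8 kb. The run stopped 1.22 kb short of the listed start.

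Adgrl2 held 53 intervals in its body, 30.5 per 100 kb, with 16 in the 100 kb before it and 18 in the 100 kb after it. Intervals covered 11.2% of the body. With the gene cut into 4 equal parts, the counts from the 5′ to the 3′ side were 18, 13, 13 and 9. No other protein-coding gene overlapped its window, so none of its 87 intervals was shared with one.

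Adgrl3 (chr5:81019085-81827825, gene ID 319387, plus strand, 808.7 kb) had intervals at all of its listed starts. Its 3 listed starts, at 81020571, 81020752 and 81021593, were met by 3 intervals of 669, 838 and 1717 bp within 1 kb of them. The last, chr5:81021290-81023006, was the widest of its window. The body held 125 intervals (15.5 per 100 kb, 6.00% covered), with 41, 36, 31 and 17 in its 4 parts from the 5′ to the 3′ side. Only 6 intervals lay in the 100 kb before the gene and 9 in the 100 kb after it. A site of 1525 bp (chr5:81518868-81520392), 500.5 kb into the gene, was the widest away from the start, and the longest empty stretch, 55.2 kb, began 367.3 kb into the gene.

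Adgrl1, the latrophilin first identified as a receptor for a spider venom toxin, is short (chr8:83900098-83941954, gene ID 330814, plus strand, 41.9 kb). An interval of 1425 bp (chr8:83898983-83900407) covered its start, and the body held 8 intervals in all, of which 4 lay in the 5′ part of 4. The body density of 19.1 per 100 kb lay below that of its downstream flank, where 28 intervals fell over a crowded stretch with Asf1b, Prkaca (a catalytic subunit of protein kinase A), Samd1, Palm3 and other genes. Of the 53 intervals in its window, 22 overlapped another protein-coding gene. The widest interval of all 9 windows, 2468 bp (chr8:83874725-83877192), lay 24.1 kb before Adgrl1 and overlapped no annotated gene.

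Among the teneurins, the ligands of latrophilins, Tenm4 was accessible at both of its listed starts. The gene lies on chr7:96171244-96911093 (gene ID 23966, plus strand, 739.9 kb). An interval of 1021 bp (chr7:96170943-96171963) covered the first start, and one of 2294 bp (chr7:96209768-96212061), the widest of its window, covered the second, 40.4 kb further on. Between them lay the longest empty stretch of the Tenm4 window, 35.0 kb from 96174750 to 96209767. The body held 160 intervals (21.6 per 100 kb, 9.83% covered), with 32, 39, 40 and 49 in its 4 parts from the 5′ to the 3′ side. Runs of 13 and 12 intervals, centred 571.7 and 394.9 kb into the gene, were its fullest. Mir708 and Mir6394, microRNA genes inside Tenm4, had no interval within 1 kb.

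Tenm3 had the most intervals of the members and none at a start. It lies on chr8:48225665-49522824 (gene ID 23965, minus strand, 1297 kb) and held 213 intervals in its window, 191 of them in the body (14.7 per 100 kb, 6.39% covered). Its listed start lay 848.1 kb inside the gene model, with the nearest interval, of 131 bp, 4.04 kb away. Its outermost 5′ end lay in an empty stretch of 34.5 kb, with the nearest interval, of 147 bp, 6.60 kb beyond it. The lower end of the gene also had no interval within 1 kb, and Tenm3 was the 1 member of 9 with none at either end (74.7% of all protein-coding genes had one). Its widest interval, 2320 bp (chr8:48842566-48844885), lay 679.1 kb into the gene, upstream of the listed start, over the lower end of the noncoding gene Gm19744. The 4 parts of the gene held 54, 27, 64 and 46 intervals. None of its 30 bins of 50 kb was empty.

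Tenm2 was the sparsest of the long members. Located on chr11:36006656-37237053 (gene ID 23964, minus strand, 1230 kb), it held 62 intervals in its body, 5.04 per 100 kb, and they covered 1.93% of it. An interval of 1513 bp (chr11:37235836-37237348) covered the outermost 5′ end. The listed start, 292.8 kb further in, lay in an empty stretch of 89.2 kb. Its longest empty stretch, 97.0 kb, lay in the middle of the gene from 36527769 to 36624798, and 5 of its 29 bins of 50 kb had no interval. Before the gene the 100 kb flank held none. After the gene there were 22, and 15 of the intervals in the window overlapped the neighbouring gene Wwc1, which takes part in Hippo signalling. The widest interval of the Tenm2 window (1718 bp, chr11:35979364-35981081) was among these 15.

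Of the FLRT genes, Flrt2 had the densest body of all members with intervals as listed. It lies on chr12:95692006-95785215 (gene ID 399558, plus strand, 93.2 kb), with no other protein-coding gene in its window. Its body held 43 intervals, 46.1 per 100 kb, against 16 in the 100 kb before it and 8 in the 100 kb after it, and they covered 16.6% of the body. When intervals across gaps of up to 1 kb were merged, the body count fell from 43 to 21 (22.5 per 100 kb), and Flrt1 (24.1) and Flrt3 (22.6) were denser. A start interval of 473 bp (chr12:95691984-95692456) was narrower than those of the other accessible starts, and wider ones of 838 bp and 1390 bp (chr12:95693813-95694650 and chr12:95694760-95696149) followed within the first 5 kb. A run of 19 intervals from 95690858 to 95720134, with gaps of at most 5 kb, was the fullest of all members. With gaps up to 10 kb, the fullest runs of Flrt1 (66) and Tenm4 (56) exceeded that of Flrt2 (46). The longest empty stretch of the Flrt2 window, 50.5 kb, lay after the gene from 95795429 to 95845900.

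Flrt1 and Flrt3 lie inside other genes, which limits what can be assigned to them. Flrt1 (chr19:7087464-7166183, gene ID 396184, 78.7 kb) lies within Macrod1, and Flrt3 (chr2:140658198-140671476, gene ID 71436, minus strand, 13.3 kb) within Macrod2, both genes of the macrodomain family. All 24 body intervals of Flrt1 and all 4 of Flrt3 therefore also counted for the host gene. An interval of 1598 bp (chr19:7164763-7166360) spanned the upper end of Flrt1, and none lay within 1 kb of the lower end. Flrt1 has no entry among the promoters, so its strand was not used. The Flrt1 window was the densest of the 9, at 26.2 per 100 kb, and its intervals were the widest, with a median of 532 bp against 336 bp over all intervals. Of its 73 intervals, 64 overlapped another protein-coding gene, and Macrod1 alone had 46 (32.5 per 100 kb).

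Flrt3, an FLRT protein required in early mouse embryos, had the fewest intervals, 18 in its window and 4 in its body. The start was nevertheless covered by an interval of 621 bp (chr2:140671096-140671716), followed inside the gene by one of 426 bp (chr2:140670461-140670886). The remaining 12 upstream and 2 downstream intervals also lay over Macrod2. An empty stretch of 94.5 kb, from 140565745 to 140660241, covered the 3′ end and most of the downstream flank. Over the whole of Macrod2, which spans 1998 kb, intervals had a density of 11.3 per 100 kb.

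The densities of the gene bodies thus fell in the order Flrt2 (46.1 per 100 kb), Adgrl2 (30.5), Flrt1 (30.5), Flrt3 (30.1), Tenm4 (21.6), Adgrl1 (19.1), Adgrl3 (15.5), Tenm3 (14.7) and Tenm2 (5.04). Without values for each library, no spread says which neighbours in this order differ, and Flrt3 and Adgrl1 rest on 4 and 8 intervals. The median gene body held 18.6 per 100 kb over all 21883 protein-coding genes, and 6 of 9 members lay above it, where 50.0% of genes do by construction. In the window with flanks, 5 of 9 lay above the median of 17.8 per 100 kb, and 2 of 9 when only intervals of at least 600 bp were counted.

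Gene bodies of the longest members were then set beside genes of like length, in classes chosen after the values were seen. The 226 protein-coding genes of at least 500 kb had a median of 9.91 intervals per 100 kb of body, below shorter genes. Against these, Tenm4 was denser than 91.2%, Adgrl3 than 74.8%, Tenm3 than 71.7% and Tenm2 than 24.8%. Of the 3955 genes of 50 to 200 kb, with a median of 18.6, Flrt2 was denser than 99.4% (92.1% with intervals merged across gaps of up to 1 kb), Adgrl2 than 86.9% and Flrt1 than 86.7%. Flrt3 was denser than 78.2% and Adgrl1 than 49.0% of the 9015 genes of 10 to 50 kb, whose median was 19.4. So 7 of 9 members lay above the median of their length class, a value that divides each class evenly by construction. Tenm2 and Adgrl1 did not. Flrt3 rests on 4 intervals, and the body intervals of Flrt1 and Flrt3 also lay over their host genes. Densities are of the kind that the choice of members rested on, and this count was not tested.

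**Figure D2:**
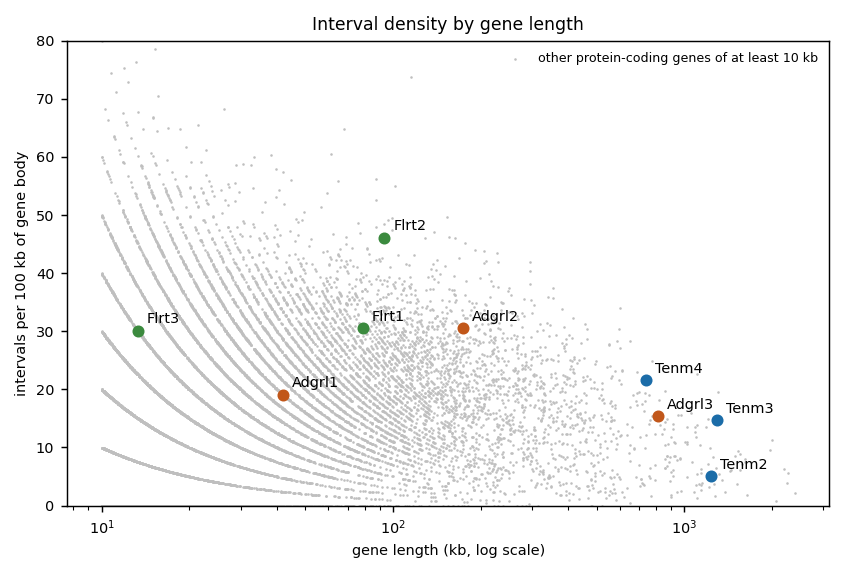
Intervals per 100 kb of gene body against gene length in kb on a log scale, with the members labelled (blue teneurins, orange latrophilins, green FLRT genes) and grey points for other protein-coding genes of at least 10 kb; 2 of these lie above the axis limit of 80. Flrt2 at 46.1 stands near the upper edge of genes of its length, and Tenm4 at 21.6 among the denser genes over 500 kb.

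Bodies were denser than their surroundings in 7 of 9 members. In Tenm3, Tenm4, Adgrl2, Adgrl3, Flrt1, Flrt2 and Flrt3 the body density exceeded that of each 100 kb flank, which was so for 40.4% of all protein-coding genes and for 38.8% of the 4944 genes of at least 50 kb. The excess was small in Tenm3 (14.7 per 100 kb against 8 before and 14 after the gene) and Flrt1 (30.5 against 24 and 25). It was large in Flrt2 (46.1 against 16 and 8). This compares densities of the kind that the choice of members rested on, and it was not tested.

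**Figure D3:**
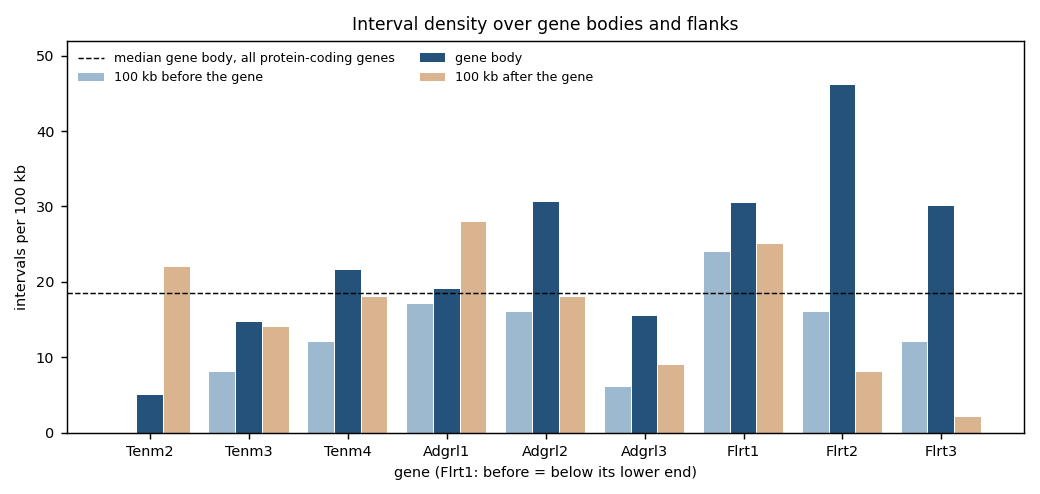
Bars give intervals per 100 kb in the flank before the gene, the gene body and the flank after it, for each member, and the dashed line marks the median gene body of all protein-coding genes at 18.6. Gene bodies exceed both flanks except in Tenm2, with 22 intervals after the gene, and Adgrl1, with 28.

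The 5′ part of 4 held more intervals than each other part in 5 of the 8 genes with a known strand (Adgrl1, Adgrl2, Adgrl3, Flrt2 and Flrt3). The 3 teneurin members were the others, and in Tenm2 and Tenm4 the 3′ part was the fullest, with 25 of 62 and 49 of 160 intervals. Adgrl1 and Flrt3 were counted on few intervals, with 4 of 8 and 3 of 4 in the 5′ part. Of 7757 genes of at least 10 kb with a listed start and at least 4 intervals, limits set after the values were seen, 27.9% had the fullest part at the 5′ side. Among the members of at least 100 kb this held for 2 of 5, and among 1845 genes of that length with a listed start and an interval for 28.2%.

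Counts by nearest gene, unlike the body and window counts above, rested in part on sites far outside some members. When each interval was instead given to its nearest protein-coding gene, Adgrl2 received 317, Tenm4 298, Tenm3 296, Adgrl3 253 and Flrt2 233. This placed them 2nd, 4th, 5th, 10th and 14th among all genes. The other members ranked far lower, Tenm2 201st (125 intervals), Flrt1 3825th (24), Adgrl1 3953rd (23) and Flrt3 12984th (4). Members were chosen with interval counts of the same file known, so these ranks are a description. Of the intervals of Adgrl2, 230 (72.6%) lay more than 100 kb from the gene, up to 1219 kb away, and of those of Flrt2 166 (71.2%). For Tenm2 this share was 47.2%, for Adgrl3 44.7%, for Tenm4 40.3% and for Tenm3 30.4%. Inside the gene lay 191 of the 296 of Tenm3, 160 of the 298 of Tenm4 and 125 of the 253 of Adgrl3. Flrt1 and Flrt3 received no interval from outside, since sites outside them lay within, or nearer to, other genes. Around Adgrl2 the density was 20.5 per 100 kb between 100 and 200 kb from the gene, and 10.1 between 500 and 1000 kb. Around Adgrl3 the same distances held 8 and 3.8 per 100 kb. Summed over the members, the outer part of the windows, from 50 to 100 kb, held 127 intervals (14.1 per 100 kb), and the sequence just outside, from 100 to 200 kb, held 315 (17.5 per 100 kb).

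**Figure D4:**
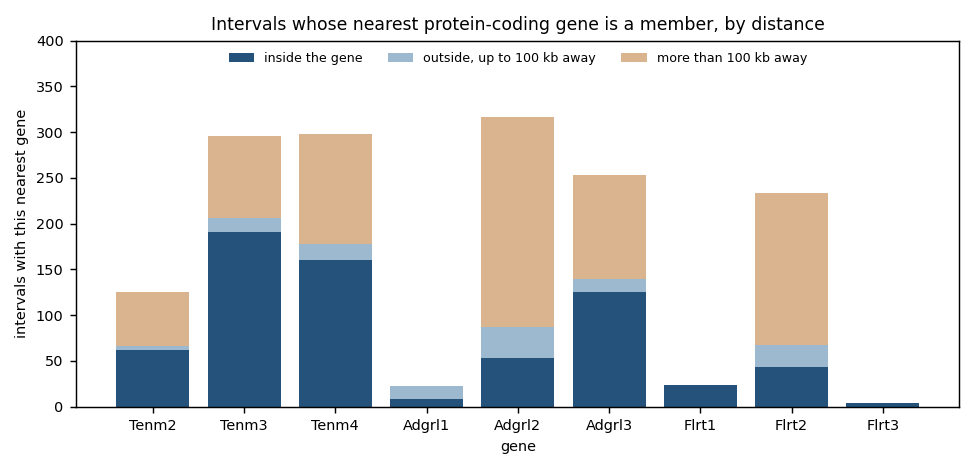
Stacked bars count the intervals whose nearest protein-coding gene is the member, split into those inside the gene, those outside it up to 100 kb away and those farther off. Most of the 317 for Adgrl2 and of the 233 for Flrt2 lie more than 100 kb away, whereas 191 of 296 for Tenm3 lie inside the gene.

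Interval widths differed little among the members apart from Flrt1. The 925 intervals had a median width of 330 bp, and 22.9% reached 600 bp, against 336 bp and 25.5% over all intervals. Medians ran from 273.5 bp (Flrt3) and 277 bp (Flrt2) to 359 bp (Tenm3), with 532 bp in Flrt1. Those of at least 600 bp made up 46.6% in the Flrt1 window and 11.1% in that of Flrt3, 2 of 18. The widest interval within 1 kb of a listed start measured 2294 bp for Tenm4, 1717 bp for Adgrl3, 1425 bp for Adgrl1, 621 bp for Flrt3 and 473 bp for Flrt2.

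The median distance between neighbouring intervals was shortest in the Flrt2 window (1.82 kb) and that of Adgrl2 (1.85 kb), and longest in those of Flrt3 (5.22 kb) and Tenm2 (7.65 kb). The Flrt1 window, the densest, had a longer median distance (2.83 kb) than the sparser windows of Flrt2, Adgrl2 and Adgrl1 (2.51 kb). Runs of at least 3 intervals with gaps up to 5 kb numbered 33 in Tenm3, 23 in Tenm4, 16 in Adgrl3, 12 in Adgrl2, 12 in Flrt1, 9 in Tenm2, 7 in Adgrl1, 5 in Flrt2 and 2 in Flrt3. In Flrt2 those 5 runs held 48 of its 67 intervals, and in Tenm2 the 9 runs held 38 of 84.

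Known partners of these proteins were also examined at their starts. Those described here were the UNC5 receptors of FLRT proteins (Unc5a, Unc5b, Unc5c and Unc5d), the FLRT partners Fgfr1, Robo1 and Rnd1, the latrophilin ligands Nrxn2, Nrxn3 and Cntn6, and the scaffolds of the latrophilin tail Shank1, Shank2 and Shank3. All 13 of these had an interval within 1 kb of a listed start (7 genes) or, with no listed start, of either gene end (the other 6), against 71.6% and 74.7% of protein-coding genes. Their widest start intervals ran from 510 bp (Cntn6) to 2720 bp (Shank3). Body densities ranged from 4.05 per 100 kb (Cntn6) and 4.89 (Unc5d) to 44.9 (Unc5b) and 48.4 (Rnd1, on 4 intervals), and 7 of 13 lay above the median of all genes. Among the long partner genes, Nrxn3 (7.94) and Robo1 (13.5) were less dense than Tenm4 and Tenm3 and denser than Tenm2 (5.04). Unc5d (573 kb long) was less dense than Tenm2 as well.

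Markers of the labelled cell type were accessible. All 9 fibroblast genes (Col1a1, Col1a2, Pdgfra, Pdgfrb, Thy1, Twist1, Prrx1, Fn1 and Vim) had an interval within 1 kb of a listed start or gene end, the widest of each between 833 and 2522 bp. A listed start had an interval in 71.6% of all protein-coding genes and either gene end in 74.7%. Of 6 neuronal genes 4 had one, Rbfox3 and Dcx being without, as did 2 of 3 endothelial and 2 of 3 epithelial genes, shares near that of any gene. Of 4 macrophage and blood cell genes 1 had one, of 312 bp. The widest in the neuronal, endothelial and epithelial lists measured 1669, 1559 and 1587 bp, within the range of the fibroblast genes. The part that other cell types in the cultures had in the intervals of the members was not tested.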

How the data were processed

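ATAC-seq libraries of 3 groups with 2 libraries each were made by the authors, whose submitters' processing notes name BWA, MACS2, DESeq2 and the build GRCm38.p6, with neither roles nor versions of the tools. Per the file headers, consensus peaks were annotated with HOMER annotatePeaks.pl against GRCm38.p6 and GENCODE vM23. How peaks were called and joined, and on which libraries, was not stated in the sources used. The deposited peak score is 0 for every interval and was not used, and the annotation columns are empty. Only the deposited positions (chromosome, start and end, 1-based) were used, and the planned comparison of groups was not run because the columns name neither libraries nor groups. Depth is unknown.

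Members and lists were chosen with earlier results of these data known. Gene bodies came from the RefSeq gene table of GRCm38.p6 (21883 protein-coding genes on chromosomes), and starts, strands and promoter sequences from RefSeq promoter entries of that build (8 of 9 members matched, 17491 genes in all). Counts took every interval overlapping a region by at least 1 bp. A start was accessible with an interval within 1 kb, runs joined at least 3 intervals across gaps up to 5 kb, and bins of 50 kb counted midpoints. Named were all members, 13 partner genes (1 further listed gene is not reported here), genes that contain a member, and per member the start interval, the 3 widest intervals, the fullest run and the densest bin where informative. Intervals other than these, neighbouring genes, the CpG threshold of 0.6, the length classes and the outermost 5′ ends were chosen after their values were seen. The counting code was tested on simulated intervals. Python 3.11.15 with numpy 2.4.6, pandas 2.3.3 and matplotlib 3.10.9 was used.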

Additional observations from a re-analysis of the deposited data

How the results depend on the processing

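The 925 member intervals became 505 with a minimum width of 300 bp and 212 with 600 bp, and lay between 670 and 924 under the other settings (flanks of 0, 10 or 50 kb, midpoints, and merging across gaps up to 1 kb). Members above the median window density numbered 5, but 2 with a minimum width of 600 bp, and 5 to 7 otherwise, the 7 from length classes added after seeing the data. Members with an accessible start, counting either end of Flrt1, numbered 6, and 5 to 8 under other distances, widths and the outermost 5′ ends. Runs numbered 119, with 93 at gaps of 2 kb and 86 at 10 kb. With merging across gaps up to 1 kb, added for gene bodies after seeing the data, Flrt2 fell from 46.1 to 22.5 intervals per 100 kb of body, and its window from 67 to 39. All 13 partner genes described kept a start interval at 250 bp and 5 kb. No paired analysis was possible because no column names a library or a replicate, and leaving out libraries was not run for the same reason. Without read depth, the absence of an interval says only that no peak was listed there.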

Other observations

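Noncoding genes inside the members also held intervals. The long noncoding RNA gene 4930555F03Rik, which overlaps the 5′ end of Tenm3 on the opposite strand, was overlapped by 25 intervals of up to 797 bp over 178156 bp, and had none within 1 kb of its own listed start. Gm15413 in Tenm4 and Gm38621 in Flrt1 had 3 overlapping intervals each, and both had one within 1 kb of their listed starts. Of the 7 noncoding genes that overlap Tenm2, Gm42072 near its 3′ end had 8 overlapping intervals, and Gm51889 and Gm22127 had none within 1 kb.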
